A study of Mus musculus with 9 samples.

Results

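The core and naive pluripotency transcription factors are 10 genes, Pou5f1 (encoding OCT4), Sox2, Nanog, Klf2, Klf4, Klf5, Esrrb, Tfcp2l1, Zfp42 (encoding REX1), and Tbx3, which were found by symbol as 10 of the 25965 rows of the deposited expression table. All 10 were tested. RNA was measured in E14 mouse embryonic stem cells (ESCs, 129/Ola background) kept in serum and LIF on no feeder layer. The study describes its knockdowns as done in ESCs that carry MERVL::tdTomato and Zscan4c::eGFP reporters. Each of 3 groups, given control siRNA, siRNA to Dppa2, or siRNA to Dppa4, was transfected at 0 h and once more at 48 h, collected at 96 h (day 4), and represented by 3 libraries named A, B, and C. The line, medium, and transfections were thus common to all 9 libraries, and the targeted genes were knocked down and not deleted. The question addressed was whether transcripts of the pluripotency network moved when DPPA2 or DPPA4, DNA-binding proteins of early embryos and ESCs, were reduced. By qRT-PCR of siRNA-treated cells, the study reported pluripotency markers as unchanged. It also reported that Nanog and Oct4 were kept as mRNA and protein in its Dppa2 and Dppa4 knockout ESCs.

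OCT4 and SOX2 bind DNA together at enhancers of the network and, with NANOG, form its core. KLF2, KLF4, KLF5, ESRRB, TFCP2L1, and TBX3 help to keep ESCs in the naive state and can in part replace each other. Several of them act downstream of LIF or Wnt signals, and REX1 is a widely used marker of the naive state. In serum and LIF, mouse ESC cultures are known to be mixed, with cells that are high or low in Nanog, Zfp42, Esrrb, Klf4, or Tbx3, so that a bulk level combines the share of such cells with the RNA that each contains. Fewer cells of a type and less RNA per cell cannot be told apart in these libraries.

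Values are the deposited log2 expression, normalized by the authors between libraries and not by transcript length, and a difference of 1 is a change by a factor of 2. An estimated 16.8 to 39.6 Mreads per library fell on genes (median 24.3). The targeted transcripts were lowest in the libraries of their own siRNA, and limma gave log2 differences from control siRNA of -3.49 for Dppa2 with Dppa2 siRNA (a change of -91.1%, adjusted p = 2.13e-05) and of -0.93 for Dppa4 with Dppa4 siRNA (a change of -47.6%, adjusted p = 0.000281). For Dppa4 with Dppa4 siRNA the study reported larger falls than this, by qRT-PCR for mRNA and by Western blot for protein. Its Western blots also showed less DPPA2 protein with Dppa4 siRNA, although Dppa2 mRNA was unchanged. Dppa2 siRNA lowered DPPA4 protein to a smaller extent, so the 2 knockdowns do not each reduce 1 protein alone. Across the 9 libraries the 8 ESC markers Pou5f1, Sox2, Nanog, Dppa5a, Tdgf1, Utf1, Fgf4, and Lin28a lay between 7.03 and 10.41. Library control siRNA C stood apart for the pluripotency factors, being the lowest of all 9 in 7 of the 10 genes, and differences are therefore also given without it where this changes their direction or moves them by more than 1.5 times. The study's legends call the siRNA samples biological replicates. In every group the labels read rep3A, rep3B, and rep3C, and what the shared rep3 stands for is not said. The labels do not say whether libraries of a group came from separate cultures, and p-values measure the spread between these libraries.

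Sequences just before the transcription start are shown for Nanog, Sox2, Klf4, and Zfp42, which belong to the transcripts that rose and fell together across the libraries and whose upstream windows hold motif letters and no annotated exon of the gene. Esrrb belongs to the same transcripts, but neither of its windows holds a motif, and they are not shown. They are the 250 bases before the RefSeq start, on the gene's own strand, in GRCm38.p6: chr6:122707239-122707488 (plus strand) for Nanog, chr3:34649745-34649994 (plus) for Sox2, chr4:55532476-55532725 (minus) for Klf4, and chr8:43307010-43307259 (minus) for Zfp42. Capitals mark the motifs that were searched on both strands.
Nanog: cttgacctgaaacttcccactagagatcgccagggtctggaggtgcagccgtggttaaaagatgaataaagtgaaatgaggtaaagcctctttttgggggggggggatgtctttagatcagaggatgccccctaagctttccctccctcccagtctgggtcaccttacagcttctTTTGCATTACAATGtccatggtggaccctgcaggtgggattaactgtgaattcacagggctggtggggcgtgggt
Sox2: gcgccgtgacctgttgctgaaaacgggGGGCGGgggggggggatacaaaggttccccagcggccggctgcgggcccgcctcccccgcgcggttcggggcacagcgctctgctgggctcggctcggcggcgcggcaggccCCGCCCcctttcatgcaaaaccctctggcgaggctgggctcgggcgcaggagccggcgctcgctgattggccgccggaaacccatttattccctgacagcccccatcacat
Klf4: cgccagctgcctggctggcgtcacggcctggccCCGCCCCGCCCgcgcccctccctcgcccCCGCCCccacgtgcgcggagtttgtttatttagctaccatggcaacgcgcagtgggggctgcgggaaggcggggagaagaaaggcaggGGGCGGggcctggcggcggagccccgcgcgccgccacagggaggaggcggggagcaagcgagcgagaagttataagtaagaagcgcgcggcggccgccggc
Zfp42: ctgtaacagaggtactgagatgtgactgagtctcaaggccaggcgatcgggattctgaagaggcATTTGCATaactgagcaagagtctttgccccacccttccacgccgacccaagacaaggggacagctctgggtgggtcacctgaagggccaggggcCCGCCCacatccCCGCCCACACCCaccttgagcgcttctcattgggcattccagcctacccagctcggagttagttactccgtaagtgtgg

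Motifs of the network's own factors were searched as fixed letters. Zfp42 held the octamer ATTTGCAT, the letters that OCT4 and its relatives bind, starting 186 bases before the start, and 1.74% of the 32851 promoters in the RefSeq table hold it anywhere in the 250 bases before and 50 after their starts. It also held the GC box GGGCGG, bound by SP and KLF proteins, on the opposite strand at 91 and 79 bases before the start, and the KLF motif GGGTGTGG at 75 bases, whose first letters overlap the nearer GC box. The GC box occurs in 35.7% and the KLF motif in 3.56% of all promoters. Klf4 held the GC box at 217, 212, 189, and 101 bases before its start, the outer pair overlapping each other, and Sox2 held it at 223 and 111 bases. Nanog held none of the letters chosen for the search. Its window contains TTTGCAT, 1 base, and ACAATG, starting 75 bases before the start, the joined octamer and Sox site for which this promoter is known; these letters were chosen after the sequence had been read, and the 2 promoters in the table that hold them are both overlapping entries of Nanog itself, so their share tells nothing of other genes. Of the 11 promoter entries found for 8 of the 10 genes, those of Klf2 and the first of Pou5f1 also held the GC box, the other of Pou5f1 held the Sox motif CATTGTT (3.78% of promoters), and those of Esrrb and Tfcp2l1 held none. The nuclear receptor motif AAGGTCA (4.72% of promoters), bound by ESRRB, and its longer form TCAAGGTCA (0.423%) were in no upstream window. Klf5 and Tbx3 have no entry. A match is a string of letters in a short window and shows no binding.

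Levels were compared between the genes per kilobase of merged exons, as log2 values in the control siRNA libraries (mean ± SD, n = 3). Pou5f1 was the highest at 9.02 ± 0.080, and its 3 libraries did not overlap those of Zfp42, the next at 7.95 ± 0.54. Nanog (7.10 ± 0.42), Klf2 (7.04 ± 0.17), and Sox2 (7.03 ± 0.57) followed with overlapping libraries, and the Zfp42 libraries also overlapped those of Nanog. Esrrb (5.88 ± 0.35) lay below Sox2 and above Klf4 (4.50 ± 0.64) without overlap, and the libraries of Klf4 overlapped those of Tfcp2l1 (3.85 ± 0.11). Below them came Tbx3 (3.45 ± 0.20), whose libraries did not overlap those of Tfcp2l1, and Klf5 (2.75 ± 1.08), which overlapped Tbx3. Per kilobase, 99.6% of the 13075 tested genes with an annotated length were lower than Pou5f1 and 67.0% were lower than Klf5, the extremes of the 10. In both knockdowns the positions were the same except for Nanog, Klf2, and Sox2, of which Sox2 came first. With the length of the longest transcript in place of merged exons the order was the same, but Sox2 then overlapped Esrrb, and Tfcp2l1 overlapped Tbx3.

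**Figure D1:**
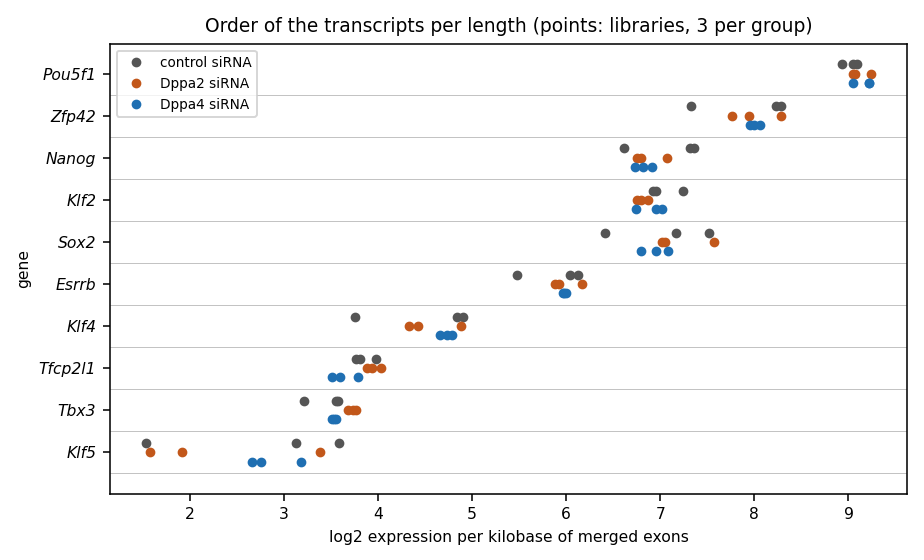
Log2 expression per kilobase of merged exons (horizontal axis) for the 10 transcripts in each of the 9 libraries, coloured by siRNA, with genes ordered by their control siRNA mean. Pou5f1 sits above all others, and the points of Klf5 are the most spread.

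By limma fitted to all 9 libraries, none of the 10 transcripts was called (Benjamini-Hochberg adjusted p below 0.05 over the 14601 genes tested) in any of the 3 comparisons. With Dppa2 siRNA 0 of 10 were called, against 3.44% of all tested genes (502), and 1, Tbx3, had an unadjusted p below 0.05, against 15.7%. With Dppa4 siRNA 0 of 10 were called, against 3.44% (502), and 0 had an unadjusted p below 0.05, against 18.0%. Between the knockdowns 0 of 10 were called, against 0.0205% (3 genes), and 1, Tfcp2l1, had an unadjusted p below 0.05, against 6.76%. The background shares are small, and 0 of 10 is near them. The high-confidence criteria, which add an intensity difference filter, were met by 1.96% and 2.0% of tested genes with Dppa2 and Dppa4 siRNA and by 0 of the 10. In Dppa2 and Dppa4 siRNA cells the 10 had median log2 differences of 0.071 and 0.070, beside 0.021 and 0.034 over all tested genes.

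Missing the threshold does not show that the transcripts did not differ. The 95% intervals give the sizes that the data allow when 1 residual SD per gene is pooled over the 3 groups. Among control libraries the 10 had a median SD of 0.38, above the 0.16 and 0.095 of the Dppa2 and Dppa4 knockdown libraries. Intervals between the knockdowns thus also carry the spread of control libraries, which that comparison leaves out. With only the 2 knockdown groups fitted, 2 of the 10 had an unadjusted limma p below 0.05, against 1538 of the 14601 tested genes. In that fit 0 of the 10 were called, against 2 of all tested genes. In each of the 3 comparisons 9 of the 10 intervals lay within a change by a factor of 2 in either direction, Klf5 being the exception, and within a factor of 1.5 lay 5 intervals with Dppa2 siRNA, 5 with Dppa4 siRNA, and 7 between the knockdowns. Library quality weights, which count libraries by their estimated precision, did lead to calls. With limma's default weights, whose estimation did not converge, 8 of the 10 were called between the knockdowns, against 71.8% of all genes. With its gene by gene weights 3 of the 10 were called with Dppa2 siRNA, against 24.4%, 2 with Dppa4 siRNA, against 19.5%, and 4 between the knockdowns, against 25.9%. These weights were added with the planned counts in view. Gene by gene, Nanog (-0.51, adjusted p = 0.00779), Klf2 (-0.38, adjusted p = 0.0106), and Klf5 (-1.18, adjusted p = 0.0137) were called lower with Dppa2 siRNA, and Nanog (-0.44, adjusted p = 0.0113) and Klf2 (-0.25, adjusted p = 0.0498) were called lower with Dppa4 siRNA. Between the knockdowns Klf4 and Klf5 were called higher and Tfcp2l1 and Tbx3 lower with Dppa4 siRNA, and both versions of the weights called these 4 in these directions. The same weights raised the number of all genes called from 502 to 3558 and 2842 in the knockdowns and from 3 to 3775 between them, so these calls depend on how the libraries are weighted.

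**Figure D2:**
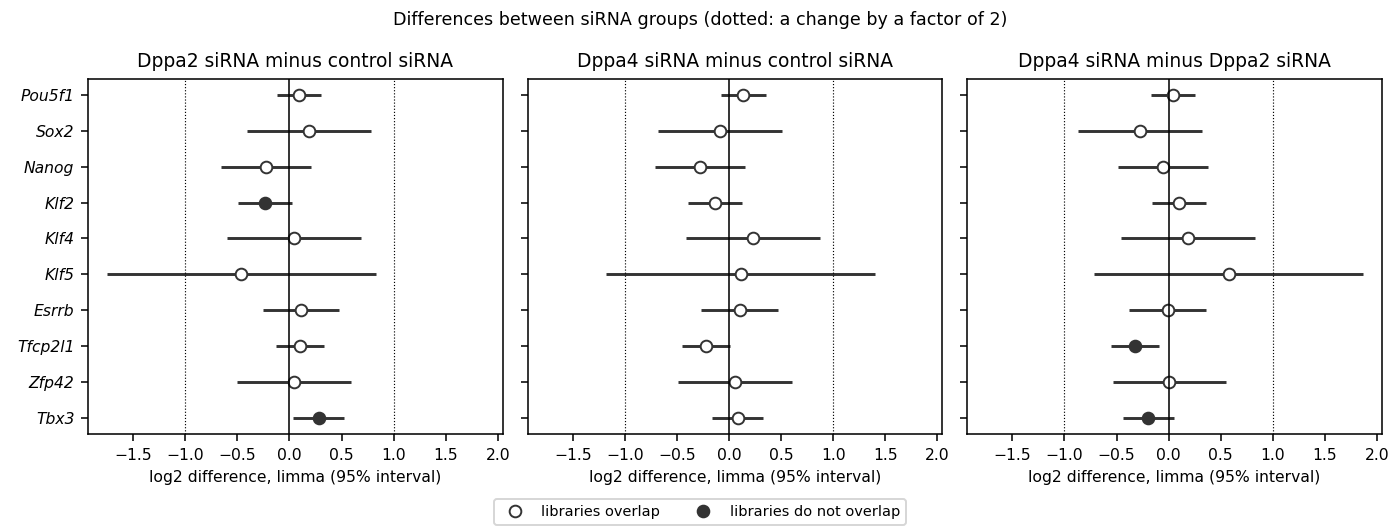
Log2 differences with 95% intervals from limma (horizontal axis) for the 10 transcripts in the 3 comparisons. Filled points mark genes whose libraries did not overlap between the groups, and the only intervals that reach past the dotted lines at a factor of 2 are those of Klf5.

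**Figure D3:**
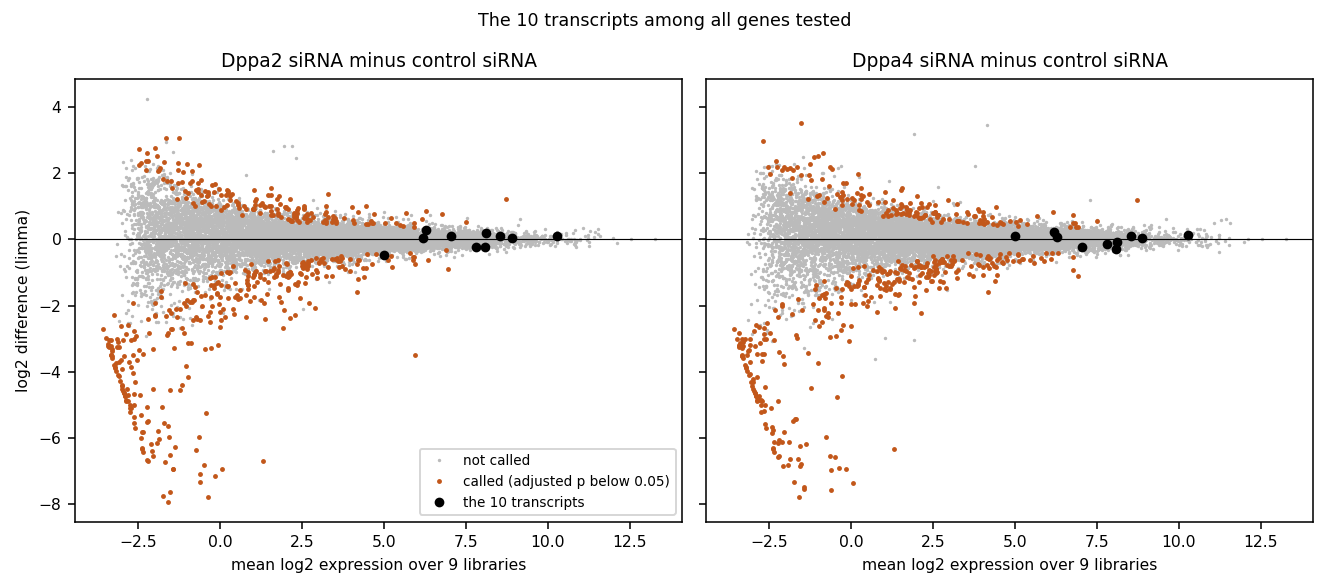
Log2 difference (vertical axis) against mean log2 expression (horizontal axis) for the 14601 tested genes in each knockdown, with called genes in orange and the 10 transcripts in black. The 10 transcripts lie among genes that were not called, at log2 differences between -0.46 and 0.28 in the left panel and between -0.28 and 0.23 in the right panel.

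Among the core factors, Pou5f1 (ENSMUSG00000024406, chromosome 17 from 35506037 to 35510776) varied least. Its log2 expression in libraries A, B, and C was 10.10, 10.26, and 10.22 with control siRNA, 10.41, 10.22, and 10.24 with Dppa2 siRNA, and 10.22, 10.39, and 10.39 with Dppa4 siRNA. All 9 values lay within 0.30 of each other, the control libraries overlapped those of both knockdowns, and the lowest was control siRNA A. Group means were 10.19 ± 0.080, 10.29 ± 0.10, and 10.33 ± 0.097 (SD, n = 3 each). The difference from control siRNA was 0.094 (SE 0.095, 95% interval -0.12 to 0.31, adjusted p = 0.781) with Dppa2 siRNA and 0.14 (SE 0.095, 95% interval -0.076 to 0.35, adjusted p = 0.522) with Dppa4 siRNA by limma, and its residual SD of 0.094 was the smallest of the 10, where the median over all tested genes was 0.24. The first of these was 0.049 without control siRNA A and 0.034 without Dppa2 siRNA A, on the log2 scale. The value 10.22 occurs in 3 libraries, whose distributions had been matched. On the opposite strand Gm19553 overlaps 14.1% of its exon bases, and the authors counted by strand.

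Sox2 (ENSMUSG00000074637, chromosome 3 from 34650005 to 34652461), the DNA-binding partner of OCT4, was far more spread. Log2 values were 8.56, 8.21, and 7.45 with control siRNA, 8.06, 8.62, and 8.10 with Dppa2 siRNA, and 7.84, 7.996, and 8.12 with Dppa4 siRNA. Control siRNA C was the lowest library and Dppa2 siRNA B the highest, and the control range contained all of the Dppa4 siRNA libraries and 2 of the 3 Dppa2 siRNA libraries. With Dppa2 siRNA the difference was 0.19 (SE 0.26, 95% interval -0.41 to 0.78, adjusted p = 0.881), and with Dppa4 siRNA it was -0.087 (SE 0.26, 95% interval -0.68 to 0.51, adjusted p = 0.926), both from limma. The directions rested on single control libraries: without control siRNA C the difference with Dppa2 siRNA was -0.13 and that with Dppa4 siRNA -0.40, and without control siRNA A they were 0.43 and 0.16.

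Nanog (ENSMUSG00000012396, chromosome 6 from 122707489 to 122714633), the homeodomain factor of the core, had its highest values in 2 control libraries. Expression was 8.48, 8.53, and 7.78 with control siRNA, 7.92, 8.23, and 7.96 with Dppa2 siRNA, and 7.89, 8.08, and 7.98 with Dppa4 siRNA on the log2 scale. Control siRNA A and B lay above every knockdown library whereas control siRNA C was the lowest of all 9, so the groups overlap. limma gave -0.22 (SE 0.19, 95% interval -0.66 to 0.21, adjusted p = 0.714) with Dppa2 siRNA and -0.28 (SE 0.19, 95% interval -0.71 to 0.15, adjusted p = 0.526) with Dppa4 siRNA. Without control siRNA C these were -0.47 and -0.52, without control siRNA A -0.12 and -0.17, and without control siRNA B -0.091 and -0.14, none of them called and all negative. Those without control siRNA C came near the threshold (limma adjusted p = 0.0777 and 0.0590). Of the 50-base stretches of its transcript, 4.85% also occur in genes elsewhere, among them the pseudogene Nanog-ps1.

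**Figure D4:**
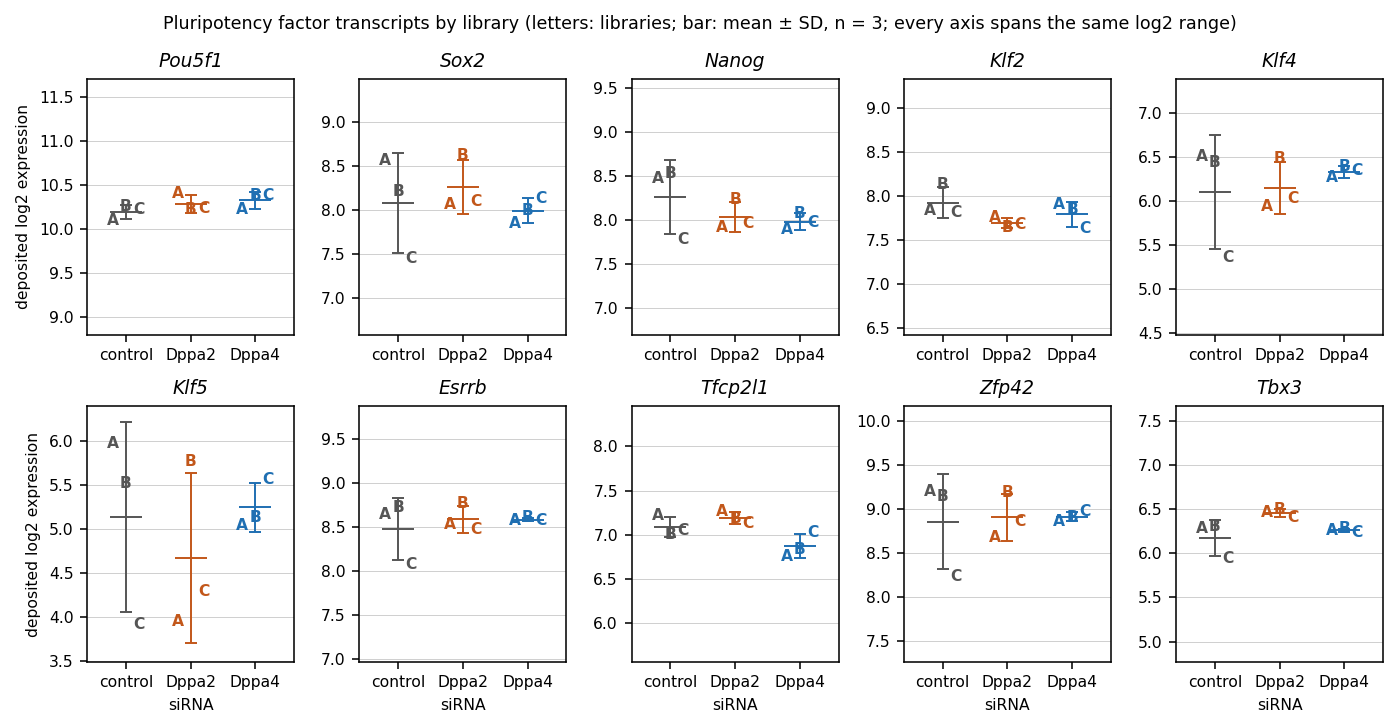
Deposited log2 expression (vertical axis, the same span in every panel) of each of the 10 transcripts by siRNA group. Letters are libraries A, B, and C, and bars are the mean ± SD of 3 libraries. Control siRNA C lies at the bottom of its group for Sox2, Nanog, Klf4, Klf5, Esrrb, Zfp42, and Tbx3, while the Pou5f1 libraries are close together.

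The KLF factors share a zinc finger DNA-binding domain and bind GC-rich sites such as those in the Klf4 and Sox2 windows above. Klf2 (ENSMUSG00000055148, chromosome 8 from 72319033 to 72321656) had log2 values of 7.84, 8.13, and 7.81 with control siRNA, 7.75, 7.64, and 7.68 with Dppa2 siRNA, and 7.91, 7.84, and 7.63 with Dppa4 siRNA. All 3 Dppa2 siRNA libraries lay below all 3 control libraries, whereas the Dppa4 siRNA libraries overlapped both other groups. The difference was -0.24 (SE 0.11, 95% interval -0.49 to 0.023, adjusted p = 0.376) with Dppa2 siRNA and -0.13 (SE 0.11, 95% interval -0.39 to 0.12, adjusted p = 0.631) with Dppa4 siRNA by limma, and neither was called. Without control siRNA B they were -0.13 and -0.033, and without Dppa4 siRNA C the latter was -0.052 on the log2 scale. In all, 2 of the 10 genes, Klf2 and Tbx3, had groups that did not overlap between Dppa2 and control siRNA, against 17.8% of tested genes, and 0 of 10 between Dppa4 and control siRNA, against 23.9%. Between the knockdowns the groups of 2, Tfcp2l1 and Tbx3, did not overlap, against 17.6% of tested genes.

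Klf4 (ENSMUSG00000003032, chromosome 4 from 55527143 to 55532466), a direct target of STAT3 downstream of LIF, was measured at 6.51, 6.44, and 5.36 with control siRNA, 5.94, 6.49, and 6.03 with Dppa2 siRNA, and 6.26, 6.40, and 6.34 with Dppa4 siRNA. Control siRNA C was lower than the next library, Dppa2 siRNA A, by more than the span of all Dppa4 siRNA libraries, and the other control libraries were among the highest. The limma difference was 0.045 (SE 0.28, 95% interval -0.59 to 0.68, adjusted p = 0.984) with Dppa2 siRNA and 0.23 (SE 0.28, 95% interval -0.41 to 0.87, adjusted p = 0.766) with Dppa4 siRNA. Without control siRNA A they were 0.25 and 0.43. Both turned negative without control siRNA C, at -0.33 and -0.14, and the first did so also without Dppa2 siRNA B, at -0.12.

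Klf5 (ENSMUSG00000005148, chromosome 14 from 99298691 to 99313405) was the most variable of the 10 and had the largest difference with Dppa2 siRNA and between the knockdowns, neither of them called. Its log2 expression was 5.97, 5.51, and 3.91 with control siRNA, 3.95, 5.76, and 4.29 with Dppa2 siRNA, and 5.04, 5.13, and 5.56 with Dppa4 siRNA. The values spanned 5.97 in control siRNA A to 3.91 in control siRNA C, a 4.16-fold range inside 1 group, and Dppa2 siRNA A and C sat near the lower end while Dppa2 siRNA B sat near the upper. Means were 5.13 ± 1.08, 4.67 ± 0.96, and 5.25 ± 0.28 (SD, n = 3 each). The residual SD was 0.85, and limma gave -0.46 (SE 0.57, 95% interval -1.75 to 0.83, adjusted p = 0.849) with Dppa2 siRNA, 0.11 (SE 0.57, 95% interval -1.18 to 1.41, adjusted p = 0.960) with Dppa4 siRNA, and 0.58 (SE 0.57, 95% interval -0.72 to 1.87, adjusted p = 0.935) between the knockdowns. With Dppa2 siRNA the difference ranged from -1.07 without control siRNA C to -0.041 without control siRNA A, and with Dppa4 siRNA from -0.49 to 0.53 without the same libraries. Without Dppa2 siRNA B the difference with Dppa2 siRNA was -1.01. Between the knockdowns, leaving out Dppa2 siRNA A gave 0.22 and leaving out Dppa2 siRNA B gave 1.12 as the difference. The intensity difference filter alone, which sets a difference of means against genes of like level and does not use the spread between libraries, was passed by 2 of the 10, Klf5 and Tbx3, with Dppa2 siRNA, against 4.86% of tested genes, and by 0 with Dppa4 siRNA, against 4.62%. About 445 reads or more per library stood behind Klf5, so that counting alone would give a log2 SD of at most 0.068, the largest of the 10.

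Esrrb (ENSMUSG00000021255, chromosome 12 from 86361117 to 86521628), an orphan nuclear receptor downstream of NANOG and of Wnt signals through TCF7L1, had log2 values of 8.64, 8.72, and 8.07 with control siRNA, 8.52, 8.76, and 8.47 with Dppa2 siRNA, and 8.57, 8.60, and 8.57 with Dppa4 siRNA. The 3 Dppa4 siRNA libraries lay close together, with an SD of 0.018, inside the control range, and control siRNA C was again the lowest. By limma the difference was 0.11 (SE 0.16, 95% interval -0.26 to 0.48, adjusted p = 0.888) with Dppa2 siRNA and 0.10 (SE 0.16, 95% interval -0.27 to 0.47, adjusted p = 0.833) with Dppa4 siRNA, and without control siRNA C these were -0.090 and -0.097, and without control siRNA B 0.23 and 0.22.

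Tfcp2l1 (ENSMUSG00000026380, chromosome 1 from 118627945 to 118685167), a target of STAT3 and of Wnt signals, was measured at 7.21, 7.01, and 7.05 with control siRNA, 7.27, 7.18, and 7.13 with Dppa2 siRNA, and 6.75, 6.84, and 7.02 with Dppa4 siRNA. Dppa4 siRNA A and B were the lowest libraries, Dppa4 siRNA C lay inside the control range, and all 3 Dppa2 siRNA libraries lay above all 3 Dppa4 siRNA libraries. The differences from control siRNA were 0.10 (SE 0.10, 95% interval -0.13 to 0.33, adjusted p = 0.782) with Dppa2 siRNA and -0.22 (SE 0.10, 95% interval -0.45 to 0.013, adjusted p = 0.309) with Dppa4 siRNA. The first of these was 0.060 without control siRNA B and 0.16 without control siRNA A. Between the knockdowns, limma gave -0.32 (SE 0.10, 95% interval -0.55 to -0.088, adjusted p = 0.666), with an unadjusted p of 0.0122, and leaving out any 1 library kept this difference between -0.40 and -0.26. It did not pass the adjustment, and of the alternatives tried it was called only with library quality weights.

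Tbx3 (ENSMUSG00000018604, chromosome 5 from 119670669 to 119684724), a T-box factor downstream of PI3K and LIF signals that also acts in primitive endoderm, had the smallest p of the 10 with Dppa2 siRNA. Values in libraries A, B, and C were 6.28, 6.30, and 5.94 with control siRNA, 6.46, 6.50, and 6.41 with Dppa2 siRNA, and 6.26, 6.28, and 6.24 with Dppa4 siRNA. The Dppa2 siRNA libraries lay above all other libraries, and control siRNA C was the lowest. limma gave 0.28 (SE 0.11, 95% interval 0.037 to 0.53, adjusted p = 0.239) with Dppa2 siRNA and an unadjusted p of 0.0287, a 1.22-fold level, 0.085 (SE 0.11, 95% interval -0.16 to 0.33, adjusted p = 0.776) with Dppa4 siRNA, and -0.20 (SE 0.11, 95% interval -0.44 to 0.048, adjusted p = 0.805) between the knockdowns. Without control siRNA C the first was 0.17 and the next -0.030, and without control siRNA B the latter was 0.15. The row's coordinates are those of Tbx3, although its transcript identifier belongs to the antisense gene Tbx3os1, which overlaps 1.74% of the exon bases on the opposite strand.

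Zfp42 (ENSMUSG00000051176, chromosome 8 from 43295068 to 43307009), a zinc finger gene that is switched off as ESCs leave the naive state, had log2 values of 9.20, 9.14, and 8.24 with control siRNA, 8.67, 9.19, and 8.86 with Dppa2 siRNA, and 8.87, 8.91, and 8.97 with Dppa4 siRNA. Control siRNA held both the highest library, A, and the lowest, C, and the knockdown libraries lay between them. Means were 8.86 ± 0.54, 8.91 ± 0.26, and 8.91 ± 0.054 (SD, n = 3 each), and limma gave 0.047 (SE 0.24, 95% interval -0.50 to 0.59, adjusted p = 0.981) with Dppa2 siRNA and 0.055 (SE 0.24, 95% interval -0.49 to 0.60, adjusted p = 0.953) with Dppa4 siRNA. Without control siRNA C these were -0.26 and -0.26, and without control siRNA A 0.22 and 0.23. Of the 50-base stretches of its transcript, 9.22% also occur in the pseudogene Zfp42-ps1, the largest such share of the 10, so a part of its reads could come from either.

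Klf5, Sox2, Klf4, Zfp42, Nanog, and Esrrb, a set of 6 picked after their values had been seen, rose and fell together: Pearson r of the log2 values over the 9 libraries was 0.70 to 0.97 for their 15 pairs (median 0.81), with the highest for Klf4 and Zfp42. Libraries share depth and composition, so these r are descriptions. Deviations from the group means gave 0.88 to 0.99, and the log2 values of the 8 libraries without control siRNA C gave 0.55 to 0.97. Tbx3 followed the set less in log2 values over the 9 libraries (0.23 to 0.75) than in deviations from group means (0.76 to 0.97). Without control siRNA C the r of its log2 values with the set was -0.42 to 0.36, so their agreement rested on that library. Deviations from group means were not examined without it. Pou5f1 was apart from the set, with r from -0.40 with Nanog to 0.021 with Esrrb, Klf2 had r of -0.16 to 0.47 with the set, and Tfcp2l1 of -0.11 to 0.48.

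**Figure D5:**
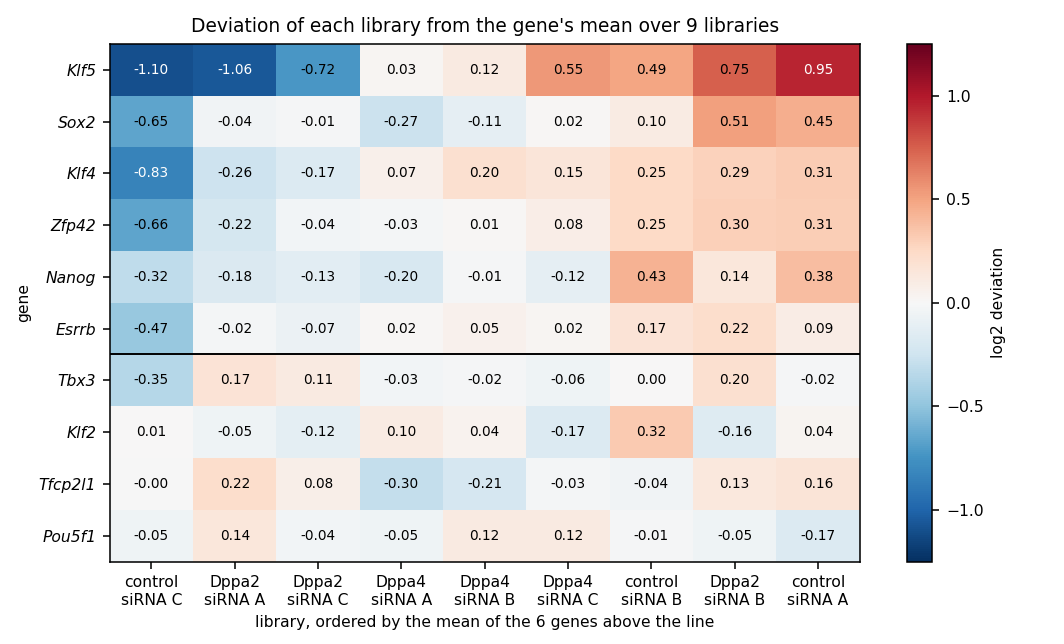
Deviation of each library (columns) from the gene's mean over the 9 libraries (rows, log2 scale, red above and blue below), with libraries ordered by the mean of the 6 genes above the line. The order of libraries mixes the siRNA groups: control siRNA C is at the low end, and control siRNA A and Dppa2 siRNA B are at the high end.

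The mean deviation of the 6 genes was -0.67 in control siRNA C, -0.30 and -0.19 in Dppa2 siRNA A and C, -0.064 to 0.12 in the Dppa4 siRNA libraries, 0.28 in control siRNA B, 0.37 in Dppa2 siRNA B, and 0.42 in control siRNA A. The order therefore crossed the siRNA groups. A dependence of expression on transcript length also differed between libraries: the slope of a library's log2 deviations over the 13075 tested genes, per doubling of transcript length, was -0.13 in control siRNA C, -0.10 and -0.075 in Dppa2 siRNA A and C, -0.076, -0.029, and 0.045 in Dppa4 siRNA A, B, and C, 0.031 in control siRNA B, 0.12 in Dppa2 siRNA B, and 0.22 in control siRNA A. Both measures had the same libraries at their ends, but control siRNA B, high in the 6 genes, had a smaller slope than Dppa4 siRNA C, and Dppa4 siRNA A had about the slope of Dppa2 siRNA C. Length and GC content together took 0.524% to 22.1% of the variance of these deviations, the most in control siRNA A. Their part in the spread of the 6 genes was not tested, but with length and GC content fitted and removed, a correction added with the data in view, 0 of the 10 were called in each comparison. Tbx3 with Dppa2 siRNA then came close to the threshold, at 0.30 (limma adjusted p = 0.0521). The median SD of the 10 genes within a group was 0.38 with control siRNA, 0.16 with Dppa2 siRNA, and 0.095 with Dppa4 siRNA, beside 0.29, 0.21, and 0.13 over all tested genes.

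Of the 14591 other tested genes, those most like Klf5 over the 9 libraries were Bnc2, a zinc finger gene (Pearson r 0.996), and Sin3a, a scaffold of histone deacetylase complexes (r 0.995). Bnc2 had log2 values of 3.53, 3.15, and 1.99 with control siRNA, 2.11, 3.31, and 2.41 with Dppa2 siRNA, and 2.85, 2.98, and 3.26 with Dppa4 siRNA. Like Klf5, both were lowest in control siRNA C and highest in control siRNA A, and neither was called (adjusted p = 0.885 and 0.916 by limma with Dppa2 siRNA). Both were chosen by r over these same libraries, so this likeness follows from the choice.

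Other genes of the network were read from the same fit, beside the all-gene shares called higher and lower of 1.16% and 2.27% with Dppa2 siRNA and 1.10% and 2.34% with Dppa4 siRNA. The all-gene shares at an unadjusted p below 0.05 by limma were 15.7% and 18.0%, for this and the lists below. Of 25 further pluripotency genes, all tested, 0 were higher and 1 was lower in each knockdown (4 and 4 at an unadjusted p below 0.05), with median differences of -0.081 and -0.064. The lowered gene was Fbxo15, an F-box gene and classic ESC reporter that is a target of OCT4 and SOX2, at 7.47, 7.63, and 7.75 with control siRNA, 6.77, 6.55, and 6.79 with Dppa2 siRNA, and 6.54, 6.49, and 6.47 with Dppa4 siRNA. Its knockdown libraries all lay below the control libraries, and limma gave -0.91 (SE 0.11, adjusted p = 0.00170) and -1.12 (SE 0.11, adjusted p = 0.000544). Neither Pou5f1 nor Sox2 passed the test in the same libraries, and the Sox2 intervals given above are wide. These RNA libraries give no level of OCT4 or SOX2 protein, and whether OCT4 or SOX2 had a part in the change of Fbxo15 was not tested.

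Of the 14 LIF and STAT3 pathway genes, 0 were called with Dppa2 siRNA and 1 was lower with Dppa4 siRNA (medians -0.026 and -0.064, 1 and 2 at an unadjusted p below 0.05). This was Jak1, a kinase of the LIF receptor, with -0.61 (SE 0.13, adjusted p = 0.0422) by limma, and with Dppa2 siRNA it was -0.38 (SE 0.13, adjusted p = 0.197). Of the 13 Wnt and TCF7L1 pathway genes 0 were called in either knockdown (medians 0.046 and -0.019, 3 and 1 at an unadjusted p below 0.05). The largest differences were those of Axin2, a feedback target of Wnt signals, at -0.55 (SE 0.20, adjusted p = 0.209) with Dppa2 siRNA, and of Tcf7l2, a TCF factor, at 0.50 (SE 0.20, adjusted p = 0.265).

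Relatives of the 10 factors were counted in the same way. Of 12 tested KLF relatives of 14, 0 were called (medians -0.083 and -0.089, 2 and 1 at an unadjusted p below 0.05), the genes with the largest differences being Klf1, the erythroid KLF, at 1.19 (SE 0.30, adjusted p = 0.0703) with Dppa4 siRNA and Klf15 at 0.45 (SE 0.15, adjusted p = 0.181) with Dppa2 siRNA. Klf1 was low in control siRNA, with a mean log2 value of -1.43. Of 13 tested Sox and Pou relatives of 14, 0 were higher and 2 lower in each knockdown (medians -0.27 and -0.13, 5 and 4 at an unadjusted p below 0.05). Sox3, the close relative of Sox2, was lower by limma with -1.36 (SE 0.19, adjusted p = 0.00599) and -1.13 (SE 0.19, adjusted p = 0.0149), and Pou4f1, a neural POU factor, with -0.95 (SE 0.15, adjusted p = 0.00859) and -0.89 (SE 0.15, adjusted p = 0.0126) for Dppa2 and Dppa4 siRNA. Sox3 is also the 1 gene called among 14 formative and primed markers (medians -0.24 and -0.053, 5 and 3 at an unadjusted p below 0.05). Of 13 tested relatives of Esrrb, Tfcp2l1, Zfp42, and Tbx3 of 16, 0 were called (medians -0.013 and -0.022, 0 and 3 at an unadjusted p below 0.05). The largest differences by limma were those of Tbx2 at 0.81 (SE 0.36, adjusted p = 0.277) with Dppa4 siRNA and Tbx6 at 0.56 (SE 0.27, adjusted p = 0.373) with Dppa2 siRNA. Tbx2 lay below the log2 value of -2 required for testing in control siRNA A and C (-2.18 and -2.29). It was tested only because the knockdown libraries are higher, and its difference is not read further.

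Markers of other cell states that such cultures can hold were examined beside the pluripotency factors, as sums of linear values per library. The 12 primitive endoderm markers summed to 296 to 326 in control, 278 to 287 in Dppa2 siRNA, and 278 to 301 in Dppa4 siRNA libraries. With Dppa2 siRNA 0 were called (4 at an unadjusted p below 0.05), and with Dppa4 siRNA 2 were higher (6 at an unadjusted p below 0.05), with median differences of 0.18 and 0.56. The higher genes were the early lineage factors Gata6 (1.44, SE 0.24, adjusted p = 0.0132) and Sox17 (1.20, SE 0.25, adjusted p = 0.0348). Both were low in control siRNA, with mean log2 values of 0.30 and -0.54. The sums, which weigh abundant markers most, did not rise with them. Those of Dppa2 siRNA lay below all control sums, and those of Dppa4 siRNA overlapped the control sums from below. Formative and primed markers summed to 459 to 608 in control, 453 to 597 in Dppa2 siRNA, and 514 to 600 in Dppa4 siRNA libraries, being higher in control siRNA A than in control siRNA C (608 and 459). Of 10 tested trophoblast markers of 11, 0 were called (0 and 1 at an unadjusted p below 0.05 with Dppa2 and Dppa4 siRNA), and their sums were 78.2 to 108 in control, 85.3 to 109 in Dppa2 siRNA, and 77.5 to 85.4 in Dppa4 siRNA libraries. Those of control siRNA C (108), Dppa2 siRNA A (109), and Dppa2 siRNA C (103) were the highest, the libraries in which the 6 pluripotency genes were lowest. The largest differences were those of Krt8, at 0.38 (SE 0.19, adjusted p = 0.408) with Dppa2 siRNA, and Tfap2c, at -0.36 (SE 0.097, adjusted p = 0.0845) with Dppa4 siRNA. Fibroblast and feeder markers were near the bottom of the scale, with Postn and Lum at the lowest value in all 9 libraries, 3 of 8 tested, 0 called (1 and 1 at an unadjusted p below 0.05), and sums of 8.49 to 9.91 in control, 6.85 to 8.08 in Dppa2 siRNA, and 7.36 to 9.18 in Dppa4 siRNA libraries. Fbn1 had the largest differences, -1.43 (SE 0.33, adjusted p = 0.0513) and -1.40 (SE 0.33, adjusted p = 0.0565), and Col1a1 was at 0.30 (SE 0.22, adjusted p = 0.648) with Dppa2 siRNA. The 9 markers of 2-cell-like cells, a rare state of ESC cultures, had sums of 82.5 to 85.2 in control, 0.670 to 1.39 in Dppa2 siRNA, and 0.750 to 1.12 in Dppa4 siRNA libraries. Zscan4f, Gm8994, and Zfp352 lay below the log2 value of -2 required for testing in every knockdown library and Tmem92 in all but Dppa2 siRNA A. These genes were tested only because the control libraries are high, and their differences are not read further. The part of these states in the values of the 10 factors was not tested.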

How the data were processed

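RNA-seq was made from 9 libraries of E14 ESCs, 3 each with control, Dppa2, or Dppa4 siRNA, grouped by their labels. Per the submitters' processing notes the reads were handled with Trim Galore 0.4.5 and HISAT2 2.0.5 (GRCm38), and per the study's methods the authors quantified mRNAs by strand with SeqMonk, whose option of matching cumulative distributions was used to normalize them. The deposited values are log2 expression per gene, not counts, so limma (3.58.1, R 4.3.3) with an intensity trend was fitted to all 9 libraries in place of the count test the authors used, over the 14601 genes above a log2 value of -2 in at least 3 libraries. P-values were Benjamini-Hochberg adjusted, with a threshold of 0.05. High-confidence genes also passed an intensity difference filter over the nearest 1% of genes by level. Depth was estimated from the steps between low values and is approximate. Lengths came from GENCODE vM21 (13075 tested genes) and promoters from RefSeq (GRCm38.p6). The scripts were tested on simulated data. The 10 genes and all gene lists were chosen with earlier results of these data known. All 10 are named, together with the called genes of each list (at most 4, by smallest p), or else its 2 largest differences, and the 2 genes most like the factor with the largest difference. Alternatives were the filter, pseudocount 1, quantile normalization, median centring, no intensity trend, library quality weights, only the groups compared, a replicate block, and each library left out. A length and GC correction and a gene by gene version of the weights, added because the planned version did not converge, were chosen after the data were seen.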

Additional observations from a re-analysis of the deposited data

How the results depend on the processing

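Without a filter, with a stricter filter, with pseudocount 1, quantile normalization, median centring, no intensity trend, only the 2 groups compared, the replicate block, the length and GC correction, and each library left out in turn, 0 of the 10 transcripts were called by limma in each of the 3 comparisons. Some came near the limma threshold: Tbx3 with Dppa2 siRNA after the length and GC correction (adjusted p = 0.0521), and Nanog without control siRNA C (0.0777 and 0.0590). The planned library quality weights (weights 0.0485 to 68.7) did not converge, left 0 of the 10 called against control siRNA, and called 8 of the 10, and 10482 of all genes, between the knockdowns. A gene by gene version (weights 0.176 to 5.90) was added after those counts had been seen, and called 3 with Dppa2 siRNA (1 of them high-confidence, among 583 such genes), 2 with Dppa4 siRNA, and 4 between the knockdowns, where 3775 of all genes were called. Control siRNA B had the lowest weight in the planned version (0.0485) and 2.44 in the other, and the cause of the calls was not tested. All genes called, 502 in each knockdown, became 298 and 264 with the planned weights, 3558 and 2842 gene by gene, 230 and 294 with only the 2 groups compared, and 763 and 762 with the length and GC correction. Leaving out 1 library gave 120 to 413 with Dppa2 siRNA (lowest without control siRNA B) and 149 to 496 with Dppa4 siRNA (lowest without control siRNA A or B).

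Same-lettered libraries did not deviate together (residual r over 14601 genes -0.58 to 0.37, above 0.1 in 2 of 9 pairs), so the letters give no pairing. With the replicate block 238 and 212 genes were called with Dppa2 and Dppa4 siRNA and 0 of the 10.

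Of the 30 differences of the 10 transcripts, none called without weights, some turned direction. With the planned weights these were with Dppa2 siRNA Sox2 (-0.062), Klf4 (-0.089), Tfcp2l1 (-0.013), Zfp42 (-0.018), and with Dppa4 siRNA Klf5 (-0.10), and between the knockdowns Nanog (0.10), Esrrb (0.12). Gene by gene they were with Dppa2 siRNA Sox2 (-0.089), Klf4 (-0.36), Esrrb (-0.17), Zfp42 (-0.26), and with Dppa4 siRNA Klf4 (-0.016), Klf5 (-0.30), Esrrb (-0.078), Zfp42 (-0.19), Tbx3 (-0.0058), and between the knockdowns Nanog (0.074), Esrrb (0.092). With the length and GC correction they were with Dppa2 siRNA Pou5f1 (-0.0098), and with Dppa4 siRNA Pou5f1 (-0.014), and between the knockdowns Pou5f1 (-0.0047). With single libraries left out, 13 turned. With Dppa2 siRNA the ranges were Sox2 -0.13 to 0.43, Klf4 -0.33 to 0.25, Esrrb -0.090 to 0.23, Zfp42 -0.26 to 0.22. With Dppa4 siRNA they were Sox2 -0.40 to 0.16, Klf4 -0.14 to 0.43, Klf5 -0.49 to 0.53, Esrrb -0.097 to 0.22, Zfp42 -0.26 to 0.23, Tbx3 -0.030 to 0.15. Between the knockdowns they were Nanog -0.11 to 0.044, Esrrb -0.064 to 0.081, Zfp42 -0.11 to 0.15. Without control siRNA C 9 turned, and without Dppa2 siRNA B 4. Counting error at the lowest estimated depth was below the residual SD of each of the 10 transcripts, but for Tbx3 (0.034) and Esrrb (0.016) it was above or near the SD of the Dppa4 siRNA libraries (0.020 and 0.018).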
